A study of Solanum lycopersicum with 6 samples.

Results

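In the pericarp of tomato (*Solanum lycopersicum*), 126 genes had clearly more transcript in fruit labelled SlDof1 RNAi than in wild-type fruit. They were chosen by their FPKM values (fragments per kilobase of transcript, scaled to library size, as deposited), with a gene missing from a file set to 0. A gene was taken when its mean over the 3 RNAi libraries was at least 5 FPKM and its lowest RNAi value was at least 2 times its highest wild-type value. The files list 23709 genes in at least 1 library, and 12734 of them reached 5 FPKM in RNAi, so the rule took 0.989% of the genes that could pass it. A pair of identifiers set aside by the rule did not meet its thresholds. Because the same libraries and the same contrast chose the genes, their difference between the groups is a description here and carries no test.

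The pericarp is the fleshy fruit wall, and all fruit was harvested 38 days post anthesis. There were 3 libraries of each genotype, wild type and SlDof1 RNAi, with no other treatment in the labels. The RNAi titles carry 1 common name, SlDof-8, and the labels do not say whether it is a single transgenic line, which promoter drove the silencing, or whether libraries came from separate plants. Dof proteins are plant transcription factors with a zinc finger of a type found only in plants, and RNAi silences a gene through double-stranded RNA matching its transcript. The labels do not tie SlDof1 to an identifier, so the silencing itself was not checked here.

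Ripening turns firm green pericarp into soft, pigmented tissue, under the control of ethylene and of transcription factors such as RIN. Plant genomes hold many genes in tandem, as neighbouring copies that arose by local duplication. A tomato identifier such as Solyc04g079450.2 gives the chromosome in the digits after "Solyc" and, after the g, a number that was assigned in order along that chromosome. All numbers in the files were multiples of 10, and 78.0% of consecutive listed identifiers were 10 apart, so an identifier 10 away is called a neighbour below. The files pair identifiers with no gene names and the RefSeq table holds no Solyc identifier, so the genes are given by identifier, without a role.

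Total expected counts were 9608643 to 10002358 per library. Ripening genes, taken by remembered identifiers, moved with the contrast: 4 of 6 fell in RNAi and 0 rose (edgeR, adjusted p under 0.05). Over all tested genes other than the 126, 5.85% fell and 5.83% rose. PG2a, a polygalacturonase that breaks down wall pectin, fell, from a range of 1042 to 1646 FPKM over the wild-type libraries to one of 137 to 215 FPKM over RNAi. The wild-type and RNAi ranges of PSY1, which makes the carotenoid precursor phytoene, were 1269 to 1441 and 757 to 763 FPKM. Those of RIN, a ripening transcription factor, were 341 to 530 and 217 to 295 FPKM. The identifier remembered for E8, an ethylene-responsive gene, had ranges of 4551 to 4792 and 3387 to 3588 FPKM, but RefSeq places E8 on another chromosome. ACO1, the last enzyme of ethylene synthesis, lay at 10522 to 13127 FPKM in wild type and 9094 to 10958 FPKM in RNAi, and the expansin gene EXP1 at 2.04 to 3.53 and 3.58 to 4.38 FPKM; neither passed the test. The part of this difference in ripening markers in the levels of the 126 genes was not tested. Wild-type library 1 and RNAi library 3 stood apart from the other 4 libraries. On the second principal component of CPM values, which are depth-scaled counts, taken as log2 (30.4% of the variance) they lay at 32.6 and 32.2, against -18.3 to -13.7. The deposited FPKM show another difference between them. They equal the count divided by the transcript length less a fixed number of bases, which was 39.5 and 40.9 in these libraries and 55.1 to 63.6 in the others.

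The doubled genes were moderately expressed. Their mean in RNAi fruit ranged from 5.01 to 149 FPKM with a median of 18.1, and their mean in wild-type fruit from 0 to 64.8 FPKM with a median of 5.33. The genes that reached 5 FPKM in RNAi had a median of 22.4 FPKM there. Over all listed genes the median of the group means was 6.18 FPKM in wild type and 6.43 FPKM in RNAi. In wild-type fruit 70 of the 126 genes lay under that median, and in RNAi fruit 113 lay above it. The rule asks for 5 FPKM in RNAi, close to the RNAi median of 6.43 FPKM. The genes that reached 5 FPKM had a lower quartile of 11.3 FPKM in RNAi, so most of them also lay above that median. The rule also favours genes that are low in wild type, so nothing is read from either count. Of the genes, 39 had an RNAi mean under 10 FPKM, 30 from 10 to under 20, 32 from 20 to under 50, 17 from 50 to under 100 and 8 at 100 or more. The highest, Solyc03g114950.2, ranked 2351 among all listed genes in wild type and 942 in RNAi, so none of the doubled genes was among the most abundant transcripts.

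Together the 126 genes took 0.15% ± 0.00987 of the expected counts in wild type and 0.472% ± 0.0288 in RNAi (SD, n = 3). Library by library, the wild-type shares were 0.162%, 0.145% and 0.144%, and the RNAi shares 0.453%, 0.458% and 0.505%. The same thresholds turned around, a gene at least 2 times higher in every wild-type library, took 85 genes. Those 85 had a median level of 39.1 FPKM in wild type and 9.63 FPKM in RNAi, against 5.33 and 18.1 FPKM for the 126. Each set was taken for a difference in its own direction, so a crossing of these medians is partly set by the thresholds. In the genotype where each set was higher, the medians were 39.1 FPKM for the 85 genes and 18.1 FPKM for the 126. The share of counts of the 85 genes went from 1.23% ± 0.0853 in wild type to 0.378% ± 0.0113 in RNAi. After scaling the FPKM by TMM factors (a correction of library size) the counts were 105 doubled and 96 halved genes. In bulk tissue, more transcript per cell and more cells of a type that makes it cannot be told apart.

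**Figure D1:**
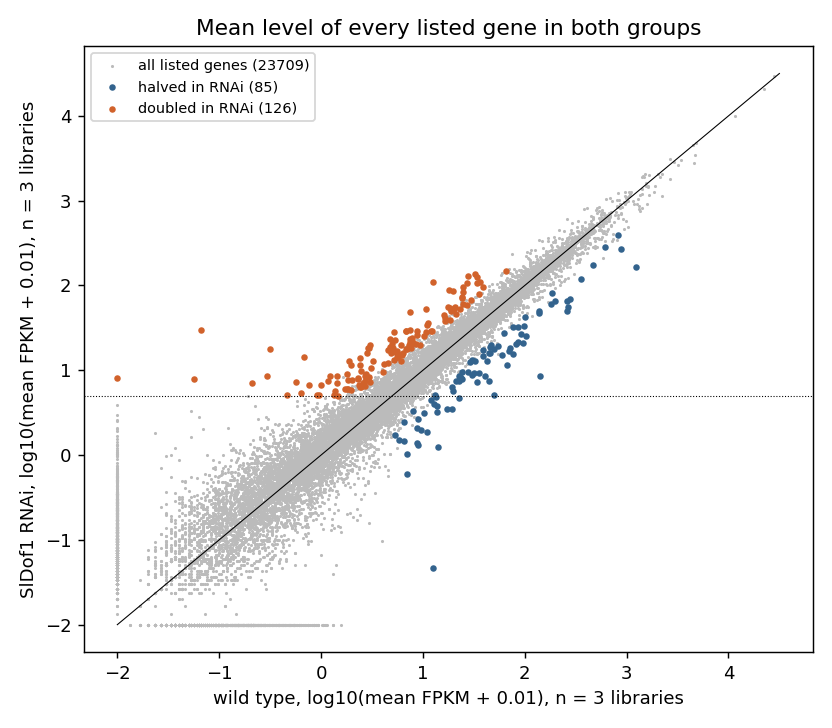
Mean FPKM of every listed gene in wild type (horizontal) and SlDof1 RNAi (vertical), on a log10 scale after adding 0.01, with 1 point per gene; the diagonal marks equal levels and the dotted line 5 FPKM. The 126 doubled genes form a band above the diagonal up to 149 FPKM, and the 85 halved genes reach higher levels.

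Most of the differences lay near the threshold. The lowest RNAi value was 2 to under 3 times the highest wild-type value for 87 genes, 3 to under 5 times for 25, 5 to under 10 times for 8 and 10 times or more for 5, with 1 gene at 0 in wild type. The median of this ratio was 2.47. As a ratio of group means the median was 3.29, with quartiles of 2.63 and 4.76. Just inside the limit lay Solyc04g077050.2 with a ratio of 2.0005, Solyc12g007030.1 with 2.003 and Solyc02g071130.2 with 2.01. Just outside lay Solyc06g083270.2 with 1.997, Solyc09g010230.1 with 1.996 and Solyc04g051360.2 with 1.994. Between ratios of 2 and 2.1 there were 23 genes, and between 1.9 and 2 there were 24. At the limit on abundance, Solyc01g096260.2 (5.01 FPKM in RNAi) was inside and Solyc08g061330.1 (4.96 FPKM) outside.

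The coefficient of variation over the 3 RNAi libraries had a median of 9.50% over the 126 genes and 10.2% over the 12734 genes that reached 5 FPKM in RNAi. In wild type the medians were 12.5% and 10.3%, so there the 126 genes had the larger spread. The rule acts on the spread within each group through its lowest and highest values, so these medians describe the choice and nothing more is read from them. By edgeR's quasi-likelihood test over all 16737 genes with enough counts, all 126 were called higher in RNAi, beside 6.54% of all tested genes; since the rule used this contrast, nothing is read from that count.

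Where 3 values are given for a genotype below, they belong to libraries 1, 2 and 3 in that order. The 8 genes of highest abundance reached 100 FPKM or more in RNAi and held 25.4% of the summed RNAi means of the 126. Solyc03g114950.2 lay at 67.2, 63.3 and 64.0 FPKM in wild type and at 148, 151 and 149.6 FPKM in RNAi. This is the tightest of the 8: the means were 64.8 ± 2.08 and 149 ± 1.44 FPKM (SD, n = 3), a ratio of 2.30. Solyc05g050130.2 lay at 30.2, 24.7 and 27.5 FPKM in wild type and 124, 131 and 133 FPKM in RNAi, a ratio of means of 4.72. Solyc01g079610.2 lay at 28.4, 26.8 and 26.4 FPKM in wild type and 106, 106 and 109 FPKM in RNAi, a ratio of 3.94. In these 3 genes the libraries of a group lay close together and far from the other group.

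Wild-type library 1 was the highest of its group in all 8 genes and RNAi library 3 in 7 of them, all but Solyc03g114950.2. The gap to the other libraries was wider in the remaining 5 genes. Solyc12g006260.1, a short transcript of 408 bases, lay at 41.2, 25.3 and 30.2 FPKM in wild type and 112, 129 and 168 FPKM in RNAi, a ratio of means of 4.23. Solyc09g005260.2 lay at 16.55, 10.4 and 10.4 FPKM in wild type and 93.5, 98.4 and 136 FPKM in RNAi. Its ratio of means, 8.78, was the largest of the 25 genes with an RNAi mean of at least 50 FPKM. Solyc04g064880.2 lay at 43.3, 29.5 and 28.8 FPKM in wild type and 117, 116 and 148 FPKM in RNAi, a ratio of 3.75. Solyc04g009860.2 lay at 41.5, 32.95 and 35.0 FPKM in wild type and 102, 104 and 122 FPKM in RNAi, a ratio of 2.99. Solyc03g006490.2 lay at 38.8, 33.6 and 30 FPKM in wild type and 100.2, 102 and 122 FPKM in RNAi, a ratio of 3.16. By the rule, the groups overlap in none of them.

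**Figure D2:**
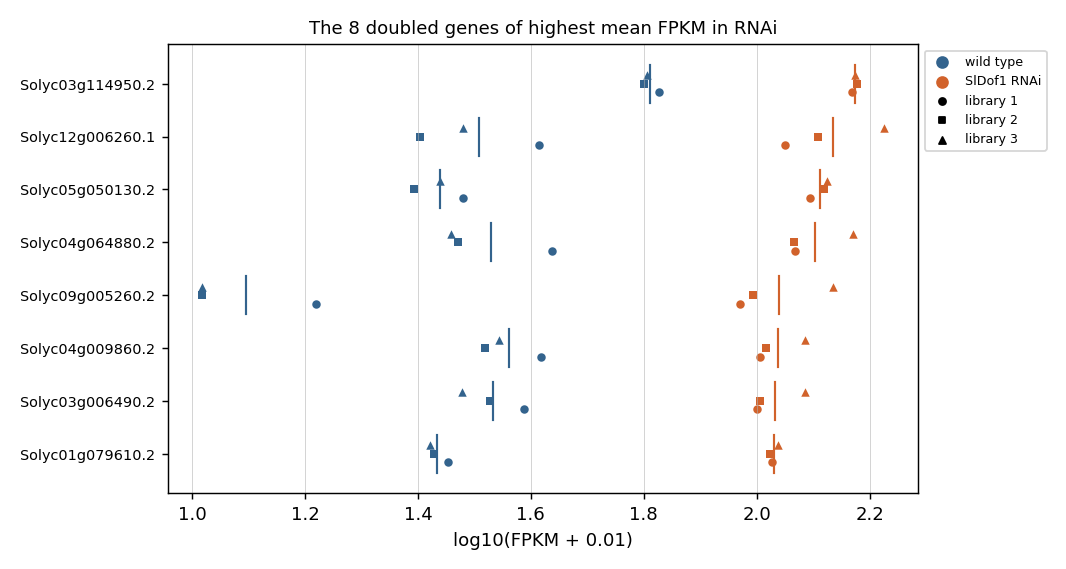
FPKM in each library, on a log10 scale after adding 0.01, of the 8 doubled genes of highest RNAi mean; blue is wild type, orange SlDof1 RNAi, the marker shape gives the library number and vertical bars are group means. Wild-type library 1 (blue circle) is the highest of its group in all 8, and RNAi library 3 (orange triangle) in 7.

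Only 1 of the 126 genes was at 0 in every wild-type library. Solyc12g038430.1 was listed in no wild-type library and lay at 6.73, 6.84 and 10.6 FPKM in RNAi. Its 217 counts over the RNAi libraries stand against 0 over wild type. With a floor of 3 counts assumed for wild type, it was 72.3-fold higher. That value leaves out the counting error in RNAi and is no interval bound. Among all listed genes 1089 were at 0 in all 3 wild-type libraries, 78 of them were above 0 in all 3 RNAi libraries, and 22 had an RNAi mean of at least 1 FPKM. The next highest of these after Solyc12g038430.1 had an RNAi mean of 3.93 FPKM. In the other direction 1006 genes were at 0 in all 3 RNAi libraries, of which 65 were above 0 in all 3 wild-type libraries, 10 had a wild-type mean of at least 1 FPKM and 0 reached 5 FPKM. A count of 0 covers counting error only and does not show that a gene is silent.

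Another 4 genes had 1 to 3 counts in all of wild type. Solyc01g081250.2 had the largest ratio. It lay at 0.17, 0 and 0 FPKM in wild type and at 26.4, 28.3 and 35.99 FPKM in RNAi, which is 1 count against 530 (ratio of depth-scaled counts 529.7, exact 95% interval 94.7 to 20960.3). Solyc08g068250.2 lay at 0, 0 and 0.14 FPKM in wild type and at 8.24, 8.2 and 7.32 FPKM in RNAi, or 2 counts against 324 (ratio 162, exact 95% interval 44.5 to 1343). Both rested on very few reads in wild type. In RNAi the replicates of Solyc08g068250.2 lay close together, whereas library 3 was the highest for Solyc01g081250.2.

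Solyc04g081700.2 lay at 0.30, 0 and 0.62 FPKM in wild type and at 15.8, 19.0 and 18.7 FPKM in RNAi, with 3 and 174 counts (ratio 58.0, exact 95% interval 19.5 to 284). Solyc04g071530.1 lay at 0, 0.20 and 0.40 FPKM in wild type and at 8.04, 6.70 and 6.4 FPKM in RNAi, with 3 and 105 counts (ratio 35.0, exact 95% interval 11.6 to 172). The wild-type values of these 2 genes rest on 3 counts each, so the size of the ratio is poorly known. Solyc07g042360.1 had 6 and 182 counts, at 0.43, 0.43 and 0 FPKM in wild type and 7, 9.13 and 9.74 FPKM in RNAi (ratio 30.3, exact 95% interval 13.7 to 83.7).

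Solyc09g064750.2 differed from these in its spread. It lay at 0.22, 0.89 and 0.88 FPKM in wild type and at 17.35, 19.1 and 7.01 FPKM in RNAi, so RNAi library 3 was far below libraries 1 and 2, and wild-type library 1 was the lowest of its group. Its counts were 9 and 196 (ratio 21.8, exact 95% interval 11.2 to 48.3). Solyc04g016230.2 lay at 0.71, 0.77 and 0.76 FPKM in wild type and at 7, 5.71 and 7.31 FPKM in RNAi, a ratio of means of 8.94. In all, 10 of the 126 genes were under 1 FPKM in every wild-type library, and 14 had fewer than 30 counts over the wild-type libraries. The intervals cover counting error only, with the libraries of a group pooled, and leave out variation between libraries. These genes were picked for large ratios in the same libraries, so the intervals carry no test and the ratios may be overstated.

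**Figure D3:**
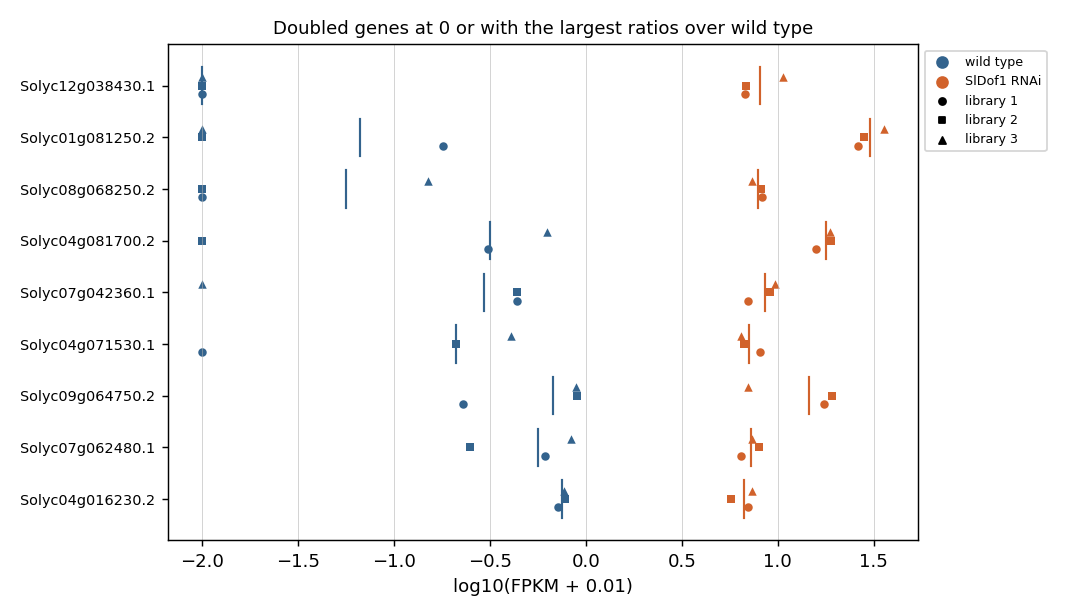
FPKM in each library, on a log10 scale after adding 0.01, of the doubled gene at 0 in wild type and the 8 with the largest ratio of lowest RNAi to highest wild-type value; colours, shapes and bars as in the plot of the 8 most abundant genes. Values at -2 are zeros: Solyc12g038430.1 is at 0 in 3 wild-type libraries and at 6.73 to 10.6 FPKM in RNAi.

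The highest value of a group often lay in the library that stood apart. RNAi library 3 held the highest RNAi value for 69 of the 126 genes, against 27 and 30 for libraries 1 and 2. Wild-type library 1 held the highest wild-type value for 59, against 36 and 30 for libraries 2 and 3. These counts were not taken over the 12734 genes that reached 5 FPKM in RNAi, so they are not read as particular to the 126. The median of RNAi library 3 over the mean of libraries 1 and 2 was 1.08 for the 126 and 1.01 for the 12734. For wild-type library 1 over the mean of libraries 2 and 3 it was 1.06 and 1.002. Taken against the mean of the other 2 libraries of its group, library 3 of RNAi and library 1 of wild type were both more than 1.2-fold higher for 18 genes (14.3%), as for Solyc09g005260.2. They were both lower by more than this factor for 6 genes (4.76%), as for Solyc09g064750.2. Of the 12734 genes that reached 5 FPKM in RNAi, 11.5% were higher in both and 14.3% lower in both. With both libraries left out the thresholds took 206 genes, 120 of the 126 among them. Fewer libraries loosen the ratio by construction, and leaving out any 1 library gave 137 to 187 genes. The turned-around thresholds took 129 genes with both left out, against 85 with all 6 libraries. No other pair of libraries was left out for comparison. Each group holds 1 of the 2 libraries that stood apart, and their part in the levels of these genes was not tested.

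**Figure D4:**
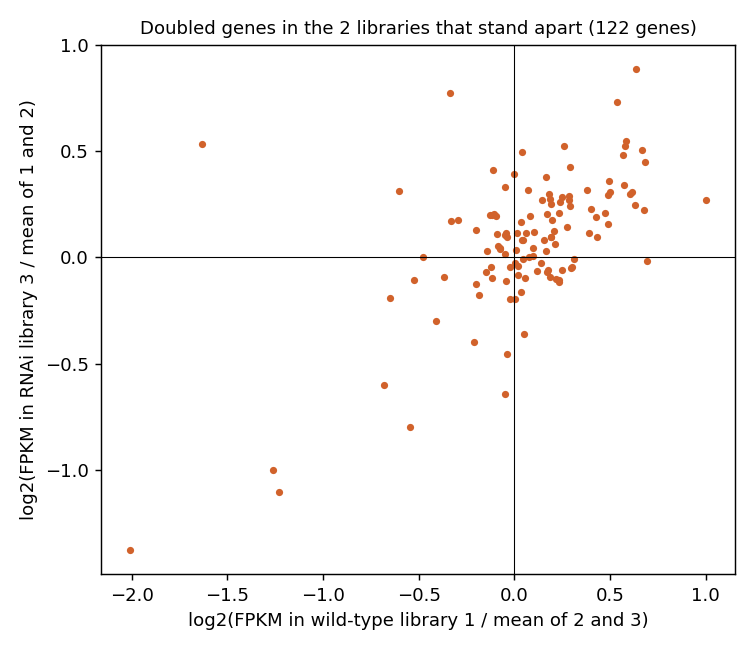
For 122 doubled genes with values above 0, log2 of wild-type library 1 over the mean of wild-type libraries 2 and 3 (horizontal) against log2 of RNAi library 3 over the mean of RNAi libraries 1 and 2 (vertical), in FPKM. Of all 126 genes, 18 were over 1.2-fold higher in both libraries and 6 were lower in both by that factor.

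Transcripts of the doubled genes were 243 to 4551 bases long, with a median of 1190 bases (quartiles 845 and 1571). For the 12734 genes of at least 5 FPKM in RNAi the median was 1383 bases (quartiles 918 and 1992). Transcripts under 600 bases made up 16 of the 126 (12.7%) and 10.7% of the larger set. Since a different number of bases was taken off the length in different libraries, FPKM of short transcripts carry a small offset between libraries. With CPM in place of FPKM in the ratio, 121 genes passed, of which 120 were among the 126.

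The genes were found on every chromosome. Chromosome 4 held 17, chromosome 12 held 16, and chromosomes 1, 3 and 9 held 14 each. As a share of the genes that reached 5 FPKM in RNAi, this was 1.98% on chromosome 12, 1.57% on chromosome 4 and 1.53% on chromosome 9, and the lowest was 0.537% on chromosome 6. A stretch of chromosome 4, identifier numbers 75000 to 79999, held 9 of the genes among 199 at that level, or 4.52%. That was the most genes in any stretch of 5000 numbers, but not the largest share. Some stretches with fewer genes had more, such as 40000 to 44999 on chromosome 12 with 4 of 64 (6.25%). The stretch of chromosome 4 was picked after the values were seen. Besides the 5 genes of 2 runs described next, it held Solyc04g077050.2 (21.1 ± 0.77 and 45.5 ± 2.29 FPKM in wild type and RNAi, SD, n = 3) and Solyc04g077860.2 (5.51 ± 1.25 and 16.8 ± 0.732 FPKM). The other two were Solyc04g078500.1 (11.9 ± 1.30 and 28.8 ± 2.54 FPKM) and Solyc04g078930.2 (1.35 ± 0.0513 and 5.64 ± 0.39 FPKM).

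Neighbouring identifiers were found together among the doubled genes: 11 of them lay in 5 runs, 1 run of 3 and 4 pairs. That is 8.80% of the 125 with a place on a chromosome. Of the 12543 other placed genes at the same level, 0.821% were next to a doubled gene. The halved genes held 1 such pair, 2 of 85 genes (2.35%). The contrast was smaller at wider gaps. Within 20 numbers, 10.3% of the doubled and 7.06% of the halved genes lay in runs, and within 50 numbers 13.5% and 8.24%. The doubled set is larger than the halved set, and a larger set has more chances to hold neighbours. The contrast between the sets was not corrected for this, so nothing is read from it. At the wider gaps no share of other genes near a doubled gene was taken. A neighbour in number is not shown to be a copy, since the sequences were not compared here. Some of these pairs shared reads, as given below.

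The run of 3 lay on chromosome 4. Solyc04g079450.2 lay at 3.33, 2.84 and 2.80 FPKM in wild type and at 18.2, 19.0 and 22.3 FPKM in RNAi. Solyc04g079460.1 next to it lay at 3, 3.32 and 2.52 FPKM in wild type and 16.1, 16.6 and 23.0 FPKM in RNAi. Solyc04g079470.2 was the most abundant of the 3 on this scale, which is per length, at 25.98, 24.3 and 24.0 FPKM in wild type and 78.4, 85.0 and 88.7 FPKM in RNAi. The ratios of means were 6.64, 6.29 and 3.39 in that order, on transcripts of 877, 453 and 1555 bases. All 3 were highest in RNAi library 3.

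The pair Solyc07g062480.1 and Solyc07g062490.1 shared a transcript length of 894 bases but not a level. Solyc07g062480.1 lay at 0.60, 0.24 and 0.83 FPKM in wild type and 6.44, 8 and 7.37 FPKM in RNAi, a ratio of means of 13.1. Solyc07g062490.1 lay at 24.1, 24.1 and 24.0 FPKM in wild type and 71.2, 74.7 and 71.6 FPKM in RNAi, a ratio of 3.02. Its wild-type mean of 24.0 ± 0.0608 FPKM (SD, n = 3) had almost no spread between libraries.

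The pair Solyc05g052670.1 and Solyc05g052680.1 had transcripts of 1386 and 1374 bases. Solyc05g052670.1 lay at 8.08, 7.60 and 6.73 FPKM in wild type and 28.3, 32.2 and 29.0 FPKM in RNAi. Solyc05g052680.1 lay at 6.02, 4.94 and 5.55 FPKM in wild type and 13.5, 14.3 and 15.7 FPKM in RNAi. The pair was close in level in wild type and apart in RNAi, with ratios of means of 3.99 and 2.63.

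The pair Solyc04g076450.1 and Solyc04g076460.2 had transcripts of 1365 and 1437 bases and smaller differences. Solyc04g076450.1 lay at 9.38, 9.53 and 9.02 FPKM in wild type and 19.8, 21.1 and 19.3 FPKM in RNAi, and Solyc04g076460.2 at 5.75, 6.59 and 4.82 FPKM in wild type and 14.4, 13.4 and 15.04 FPKM in RNAi. Their ratios of means were 2.16 and 2.497. Solyc07g048060.1 and Solyc07g048070.2, of 516 and 1508 bases, lay at 6.83 ± 0.575 and 2.30 ± 0.384 FPKM in wild type and at 28.95 ± 2.16 and 7.997 ± 1.32 FPKM in RNAi (SD, n = 3).

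Shared reads bear on these runs. An expected count that is not whole marks a gene whose reads were divided with another, and 6 of the 11 genes in runs had one, against 12 of all 126 (9.52%) and 5.95% of the genes at that level. The 6 are both genes of the pairs at Solyc05g052670.1 and Solyc04g076450.1, and Solyc04g079450.2 and Solyc04g079470.2. In both of these pairs the counts were not whole in any library, but those of the 2 genes added up to a whole number in each. In wild-type library 1 they were 120.24 and 77.76 for Solyc04g076450.1 and Solyc04g076460.2, and 105.29 and 77.71 for Solyc05g052670.1 and Solyc05g052680.1. Reads were thus divided between the 2 genes, so levels within those pairs are uncertain. The 2 genes of such a pair are not fully separate cases among the 11. The part of the division of reads in the joint difference of each pair was not tested. Solyc04g079450.2 and Solyc04g079470.2 had whole counts in 5 libraries. In RNAi library 2 their counts were 156.05 and 1273.95, close to whole numbers, and these also added up to a whole number. Outside the runs of neighbours, the named genes Solyc04g009860.2, Solyc04g071530.1, Solyc07g042360.1 and Solyc04g081650.2 had a count that was not whole in at least 1 library. The pairs on chromosome 7 and Solyc04g079460.1 had whole counts in all 6 libraries. Within a gap of 50 numbers, 17 genes lay in 8 runs; the added pairs are Solyc01g081250.2 with Solyc01g081270.2, Solyc04g081650.2 with Solyc04g081700.2, and Solyc09g089680.2 with Solyc09g089730.2. Of these, Solyc01g081270.2 lay at 2.54, 2.34 and 3.28 FPKM in wild type and 8.75, 8.27 and 8.68 FPKM in RNAi, far from the near absence of Solyc01g081250.2 in wild type.

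**Figure D5:**
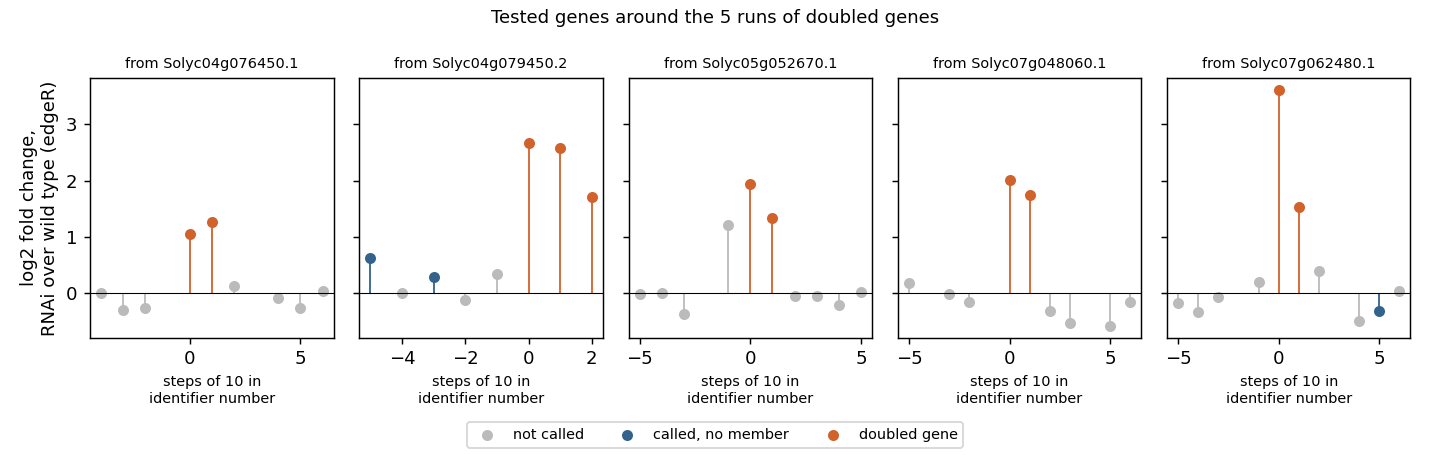
Log2 fold change, RNAi over wild type, from edgeR for the tested genes around each of the 5 runs, by steps of 10 in identifier number from the first gene of the run; orange marks doubled genes, blue other genes with an adjusted p under 0.05 and grey the rest. The doubled genes were chosen for being higher in RNAi, so that they stand above the other genes shown is set by the rule. Most of those other genes were not called, as over all tested genes.

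The genes next to the doubled ones were not chosen by their values, apart from having missed the rule, so edgeR's test was read for them. Of 136 tested neighbours at a distance of 10, 18 rose in RNAi (13.2%) and 4 fell (2.94%). Over the 16611 tested genes other than the 126, 5.83% rose and 5.85% fell. The median log2 fold change was 0.09 for the neighbours and -0.01 for those other genes. At a distance of 20 to 50, 29 of 491 rose (5.91%) and 35 fell (7.13%), with a median of -0.04. Of the 18 neighbours that rose, 1 had a count that was not whole. The strand of the libraries is not given in the sources used here, so reads of overlapping genes on opposite strands cannot be told apart.

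The neighbour counts moved with the libraries used: 11 neighbours rose when wild-type library 2, wild-type library 3 or RNAi library 1 was left out. In those fits, in that order, 2.70%, 2.80% and 3.17% of the other genes rose. With wild-type library 1 and RNAi library 3 both left out 30 of 137 rose (21.9%) and 13 fell (9.49%), against 10.8% and 10.6% of the other genes.

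Among the neighbours that passed, Solyc02g081350.2 had the largest change. It rose from 0.23, 0.11 and 0.28 FPKM in wild type to 1.63, 1.33 and 1.59 FPKM in RNAi (edgeR log2 fold change 2.79 ± 0.33, SE, with an adjusted p of 0.00138), beside the doubled gene Solyc02g081360.2 at 5.06 ± 0.177 and 18.3 ± 2.54 FPKM (SD, n = 3). Solyc12g096890.1 rose from 11.2, 11.9 and 9.62 FPKM to 23.6, 25.3 and 34.3 FPKM (edgeR log2 fold change 1.29 ± 0.19, SE, with an adjusted p of 0.00389), beside Solyc12g096880.1 at 7.52 ± 0.843 and 21.4 ± 4.8 FPKM. The first of these neighbours stayed under 5 FPKM, and the second fell just short of the ratio of 2, with 23.55 FPKM as its lowest RNAi value and 11.87 FPKM as its highest wild-type value.

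Solyc12g042460.1 rose at a low level, from 0.77, 0.83 and 0.69 FPKM to 1.91, 1.82 and 2.76 FPKM (edgeR log2 fold change 1.44 ± 0.26, SE, with an adjusted p of 0.00889), beside Solyc12g042470.1. In the other direction, Solyc03g080180.2 fell from 4.64, 5.76 and 5.61 FPKM to 2.05, 1.87 and 1.25 FPKM (edgeR log2 fold change -1.68 ± 0.22, SE, with an adjusted p of 0.00195). The doubled gene next to it, Solyc03g080190.2, lay at 20.7 ± 3.29 FPKM in wild type and 55.2 ± 7.33 FPKM in RNAi (SD, n = 3), so adjacent genes differed in opposite directions here. Each of the 4 neighbours kept its direction and stayed past the threshold in all the alternative fits.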

How the data were processed

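RNA-seq libraries of tomato pericarp were analysed, 3 wild type and 3 SlDof1 RNAi. Each deposited file gives an expected count (an estimated count, which need not be whole), an FPKM value and a transcript length per gene, per the file headers. For the aligner, counter, genome build and strand, nothing is stated (not given in the sources used here). Between 94.5% and 94.9% of expected counts were whole within 0.005.

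The rule was applied to the deposited FPKM. For tests, expected counts were rounded, genes kept by filterByExpr (10 counts in a median library, 15 in all), and groups compared with edgeR's quasi-likelihood test (TMM, group as the only term), adjusted by the Benjamini-Hochberg method over 16737 genes, threshold 0.05. The SE is the absolute log2 fold change over the square root of F. Since the labels name no separate plants, p-values reflect only variation among these libraries, which may be technical. A count of 0 was taken to allow 3 counts over a group.

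Genes named are the 8 highest by RNAi mean, the 8 largest ratios, all at 0 in wild type, those in runs, those nearest the limits and the 4 called neighbours of largest change. Any other gene was chosen after its values were seen. The genes and the lists were chosen with earlier results of these data known. Of 118 genes in pathway lists written from memory, 0 were among the 126. The rule took only 0.989% of the genes that could pass it, so nothing is read from this 0. Of the lists, 89 genes were tested, of which 11 were higher and 31 lower in RNAi. Over all tested genes other than the 126, 5.83% were higher and 5.85% lower. For 5 of 6 ripening genes a RefSeq gene of the remembered name lies on the chromosome of the identifier (assembly SLM_r2.1). Alternatives were other limits, scalings, gaps, DESeq2, no filter, a replicate block and leaving out libraries. Versions were R 4.3.3, edgeR 4.0.16, DESeq2 1.42.0, Python 3.11.15, scipy 1.17.1 and matplotlib 3.10.9.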

Additional observations from a re-analysis of the deposited data

How the results depend on the processing

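The number of doubled genes was 245 with a minimum mean of 1 FPKM and 1405 with no minimum; of the 1279 genes added by the latter, 1011 were not above 0 in all RNAi libraries. A ratio of 1.5 gave 327 genes, a ratio of 3 gave 39, and leaving out wild-type library 1 and RNAi library 3 together gave 206. Leaving out 1 library gave 137 to 187 genes. A minimum of 10 FPKM (87 genes), TMM scaling (105), a pseudocount of 1 (100) and CPM (121, an alternative chosen after seeing the data) stayed within 1.5 times of 126. A gap of 50 in identifier number gave 17 genes in runs, and 5 genes had at most 3 counts in wild type. Within a gap of 50, 47 of 627 neighbours rose (7.50%) and 39 fell (6.22%), against 5.83% and 5.85% of the other genes. With the 2 libraries left out 30 rose (21.9%) and 13 fell (9.49%), against 10.8% and 10.6% of the other genes. With 1 library left out 11 to 17 rose (7.86% to 12.3%), against 2.70% to 5.92% of the other genes. In those fits 3 to 5 fell (2.14% to 3.62%), against 2.85% to 5.40%. The test called 2065 of all genes, 3693 with the 2 libraries left out, 1108 to 2038 with 1 left out, and 1973 by DESeq2. The cause of these shifts was not tested beyond what the limits set by construction.

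Between same-numbered libraries, the correlations of deviations across genes were -0.49, 0.28 and -0.52 for numbers 1 to 3. For wild-type library 1 with RNAi library 3 the correlation was 0.70. Deviations within a group are tied to each other and these 2 libraries stood apart. The values therefore cannot decide whether the numbers pair libraries, and the labels name no such pairing. With the replicate block in edgeR 877 genes were called, and 11 of 136 neighbours rose (8.09%), against 2.23% of the other genes. The FPKM ratio taken within each replicate number took 145 genes. At 9608643 to 10002358 counts per library, the wild-type level of 14 genes rests on fewer than 30 counts.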
